A study of Mus musculus with 8 samples.

Results

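Fragments of alanine tRNAs were taken as every sequence in the deposited tRF table whose tRNA name began with Ala. These were 155 of 2226 sequences, with 116 under Ala-AGC, 36 under Ala-CGC and 3 under Ala-TGC, where the last letters are the anticodon in DNA letters. They were 16 to 30 nt long. The same sequence can occur in several tRNAs, and 22 of the alanine sequences lay inside a longer sequence listed under another alanine anticodon, so a name here is that of the table.

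The fragments came from pancreatic β-cells, the insulin-secreting cells of the islet, of male mice aged 8 weeks. Db/db mice (C57BL/KsJ background) carry a mutated leptin receptor and become obese and diabetic, and the controls were wild type mice of the same age. There were 4 libraries per genotype, each from islets of several pooled animals that were dissociated and sorted by flow cytometry as autofluorescent cells without the leukocyte marker CD45, so a replicate was a pooled preparation and not a single animal. The study asked whether the pool of tRNA-derived fragments (tRFs) differs between the genotypes. The table held tRNA names almost alone, so the identity of the β-cells could not be checked against marker genes, and since a library is a pool of cells, a change in the cells that contributed and a change of level per cell cannot be told apart.

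Alanine tRNAs carry alanine to the ribosome and are recognised by their synthetase mainly through a G:U pair in the acceptor stem, the helix that joins the 5′ end to the 3′ end. A 3′ fragment of a mature tRNA ends in CCA, which is added after transcription and is the site of amino acid attachment. A 5′ fragment begins at the first base, and many alanine tRNAs begin with a run of guanines (terminal oligoguanine), a feature by which 5′ alanine fragments are known in studies of stress-induced tRNA cleavage.

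The libraries held between 582165 and 2946290 tRF counts, each count being a unique molecule. Alanine fragments made up 2.08% ± 0.714 (SD, n = 4) of tRF counts in wild type libraries and 2.22% ± 0.454 in those of db/db mice, and the genotypes overlapped. Without 1 sequence that is described further on and stood far above the rest in wild type library 2, these shares were 1.66% ± 0.253 and 2.18% ± 0.430, which also overlapped. In the test of single sequences, edgeR's quasi-likelihood test over the whole table with an adjusted p-value below 0.1 and a change above 2-fold required for a call, 131 alanine sequences had enough counts to be tested and 24 had not. Of the tested ones, 21 were higher and 8 lower in db/db β-cells. This balance depends on the scaling: 11 were higher and 8 lower when scaled to all counts of a library, and 5 higher and 7 lower with the library sizes behind the deposited log2 values. The median of all sequences was -0.36 under the former and -0.51 under the latter. The filter on low counts took part in these counts. Of those higher, 8 reached the count minimum in 0 wild type libraries, and of those lower, 2 reached it in 0 db/db libraries, so that once tested they had to differ in that direction, and their p-values are not given. A further 3 higher ones reached it in 1 wild type library, and 1 further lower one in 1 db/db library. The filter favoured a high level in the other genotype for these too, and their p-values are not given either. Of all tested sequences in the table, 15% were called, 5.57% higher and 9.44% lower. The alanine shares were 22.1%, 16% and 6.11%. Median log2 fold changes (db/db over wild type) were 0.36 for alanine sequences and 0.00 for all sequences. Without overlap between the genotypes were 36 alanine sequences, or 27.5%, against 17.1% of the table. Levels are given below as CPM, which are counts scaled to 1000000 tRF counts per library with TMM factors. These factors were worked out separately for single sequences and for each way of adding them up, so that CPM are comparable between libraries but not between kinds of sums.

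The 41 alanine 5′ fragments were all named Ala-AGC and fell into 4 start variants, which differed in the first 7 bases, the 5′ strand of the acceptor stem. Each of these strands paired along its full length with the 7 bases before the last 4 of an alanine 3′ fragment, through 6 Watson-Crick pairs and 1 G:U pair at position 3, and the variants are called stems I to IV here. Stem I paired fully with the end of stem II as well, and stem III with that of stem IV, but then with 2 G:U pairs, at positions 3 and 5. The most abundant 5′ fragment of each stem is shown because the stems differed between genotypes, with the 5′ strand in capitals.
Stem I, 30 nt: GGGGGTGtagctcagtggtagagcgcgtgc
Stem II, 18 nt: GGGGATGtagctcagtgg
Stem III, 23 nt: GGGGGATtagctcaaatggtaga
Stem IV, 23 nt: GGGGAATtagctcaaatggtaga

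Stem I was the rarest of the 5′ variants and the one that rose. Its summed level was 70.2, 45.3, 76.7 and 32.1 CPM in wild type libraries 1 to 4 and 213, 214, 112 and 232 CPM in db/db libraries 1 to 4. All db/db libraries lay above all wild type libraries, with db/db library 3 the lowest of its genotype. The log2 fold change was 1.80 (SE 0.371), with an adjusted p-value of 0.00680 by edgeR's quasi-likelihood test over all groups of sequences that share a name and their first 8 bases. When scaled to all counts of a library or to the sizes behind the deposited log2 values, the log2 fold change was 1.46 or 1.20 and was no longer called, while the median of all such groups moved to -0.35 or -0.49. Stem II had 249, 169, 483 and 205 CPM in wild type and 604, 510, 229 and 687 CPM in db/db libraries. Wild type library 3 was the high one and db/db library 3 the low one, and the genotypes overlapped. The log2 fold change of 0.88 (SE 0.386; adjusted p-value 0.288, edgeR) passed the call only without wild type library 3, at 1.28.

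Stems III and IV, which share the bases that follow the stem, did not pass the test. Stem III had 1245, 1000, 1963 and 1037 CPM in wild type and 1079, 1072, 705 and 1404 CPM in db/db libraries, a log2 fold change of -0.30 (SE 0.314; adjusted p-value 0.708, edgeR). Stem IV had 383, 301, 483 and 249 CPM in wild type and 446, 449, 310 and 549 CPM in db/db libraries, a log2 fold change of 0.31 (SE 0.297; adjusted p-value 0.682, edgeR). For both, the levels of the 2 genotypes overlapped, and for stem IV the sign turned to -0.0080 and -0.21 under the same other scalings.

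The make-up of the 5′ fragments does not depend on how libraries are scaled. Stem III made up 63.9%, 66.0%, 65.3% and 68.1% of alanine 5′ counts in wild type libraries and 46.1%, 47.8%, 52.0% and 48.9% in db/db libraries. The means were 65.8% ± 1.75 (SD, n = 4) and 48.7% ± 2.50, without overlap. Stem I accounted for 2.81% ± 0.639 (wild type) and 8.74% ± 0.707 (db/db), and stem II for 13.4% ± 2.04 and 22.3% ± 3.84. Neither overlapped between the genotypes, whereas stem IV, with 18% ± 2.06 and 20.3% ± 1.79, did. The margin for stem II was narrow, with wild type library 3 at 16.1% and db/db library 3 at 16.9%. Every db/db library thus had larger shares of stems I and II and a smaller share of stem III than any wild type library. This holds for the fragments classed as 5′, which leave out the 16-nt Ala-CGC sequence described further on. That sequence begins with the strand of stem II and made up 51.1% of alanine counts in wild type library 2. The fragments classed as 5′ were 5.47% there, so counting it would make stem II the largest part of the 5′ pool in that library. All 5′ fragments together accounted for 9.82% ± 4.49 (wild type) and 10.7% ± 3.07 (db/db) of alanine counts, and without the sequence that stood apart in wild type library 2 the order turned, to 11.4% ± 3.65 and 10.9% ± 3.31, with overlap in both cases.

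**Figure D1:**
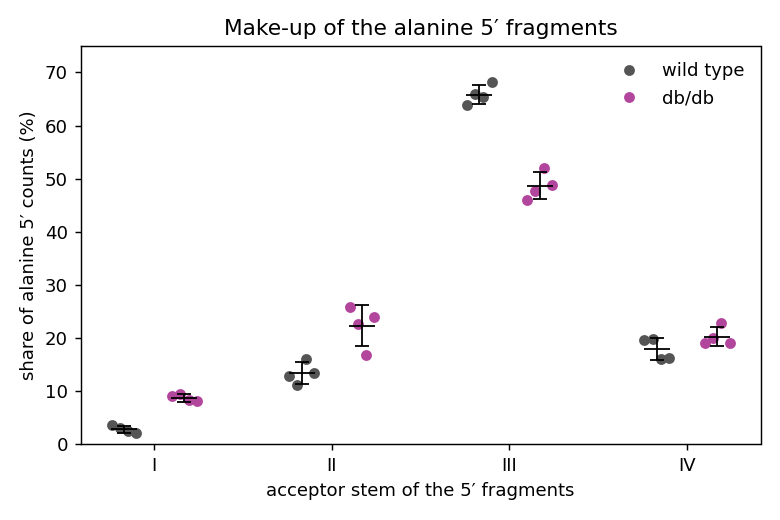
Share of alanine 5′ counts (%, vertical axis) held by the 4 acceptor stem variants (horizontal axis) in each library. The 16-nt Ala-CGC sequence that begins with the strand of stem II is not counted. Points are the 4 wild type (grey) and 4 db/db (purple) libraries, with mean and SD in black, and the db/db points lie above the wild type points for stems I and II and below them for stem III.

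Among single 5′ fragments, the 2 tested of stem I rose, as did 4 of 9 of stem II, whereas 1 of 14 of stem III fell and 0 of 8 of stem IV were called. The 23-nt fragment of stem I reached the count minimum in 0 wild type libraries, so once tested it had to be higher in db/db libraries. A further 4 stem I and 4 stem IV fragments had too few counts to be tested. These rises depend on the scaling: 1 of stem I and 1 of stem II were called when scaled to all counts, and 0 of either with the sizes behind the deposited log2 values, whereas the fall in stem III was called under both. Without wild type library 2, 1 of 9 of stem II was called. The following are shown because they were called, with the 5′ strand of the stem in capitals.
Stem I, 23 nt: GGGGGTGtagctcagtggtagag
Stem II, 23 nt: GGGGATGtagctcagtggtagag
Stem III, 29 nt: GGGGGATtagctcaaatggtagagcgctc
The 23-nt fragment of stem I had 14.2, 4.06, 11.8 and 7.72 CPM in wild type and 49.3, 61.4, 22.9 and 64.8 CPM in db/db libraries, a fitted log2 fold change of 2.40 (SE 0.546). The 30-nt fragment of stem I had 37.4, 8.12, 28.6 and 13.9 CPM in wild type and 40.6, 54.2, 71.1 and 55.9 CPM in db/db libraries, a log2 fold change of 1.37 (SE 0.492; adjusted p-value 0.0734, edgeR). Both were higher in every db/db library than in any wild type library. The call of the 23-nt fragment was lost under the sizes behind the deposited log2 values (1.83). That of the 30-nt fragment was lost under these and when scaled to all counts (1.23 in both cases), and without db/db library 3 (1.28), wild type library 2 (1.09) or wild type library 4 (1.20). The 23-nt fragment of stem II had a log2 fold change of 1.87 (SE 0.490; adjusted p-value 0.00868, edgeR), which was 1.46 and called when scaled to all counts and 1.15 and not called with the sizes behind the deposited log2 values. It was named after its values were seen. The 18-nt fragment, the most abundant of that stem, had a log2 fold change of 0.54 (SE 0.444; adjusted p-value 0.528, edgeR) that was called without wild type library 3, at 1.13.

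The 29-nt fragment of stem III, the only 5′ fragment that fell, had 23.1, 58.2, 33.6 and 32.4 CPM in wild type and 13.5, 7.22, 5.82 and 22.2 CPM in db/db libraries. The groups did not overlap, with wild type library 1 just above db/db library 4. The fitted log2 fold change of -1.59 (SE 0.544; adjusted p-value 0.0576, edgeR) lost its call without any one of db/db libraries 1 (-1.64), 2 (-1.38) and 3 (-1.28) or wild type library 2 (-1.32), and without a normalisation factor (-1.42). The 23-nt fragment of the same stem, its most abundant, had a log2 fold change of -0.37 (SE 0.340; adjusted p-value 0.586, edgeR).

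The 5′ fragments differed in length by stem. Fragments of stems III and IV were most often 23 nt long (24.5% ± 3.05 and 23.6% ± 3.21 of their counts in wild type libraries; 23.6% ± 3.75 and 23.8% ± 3.24 in db/db libraries), with 19 nt next. Fragments of stem II were most often 18 nt long, at 36.9% ± 8.74 in wild type and 29.3% ± 3.02 in db/db libraries. Those of stem I had the highest mean share at 30 nt, the longest length in the table, at 38.4% ± 14.7 and 32.0% ± 17.8, but this length did not lead in every library. In db/db libraries 1, 2 and 4 the 23-nt fragment had more counts (51, 34 and 73) than the 30-nt one (42, 30 and 63), and the db/db mean rests on library 3, with 55 and 171. In wild type library 2 the 30-nt fragment, with 6 counts, did not lead either. The count-weighted mean length of stem II was 19 nt ± 0.249 in wild type and 19.6 nt ± 0.0793 in db/db libraries, which did not overlap. For the other stems the mean lengths overlapped between genotypes.

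**Figure D2:**
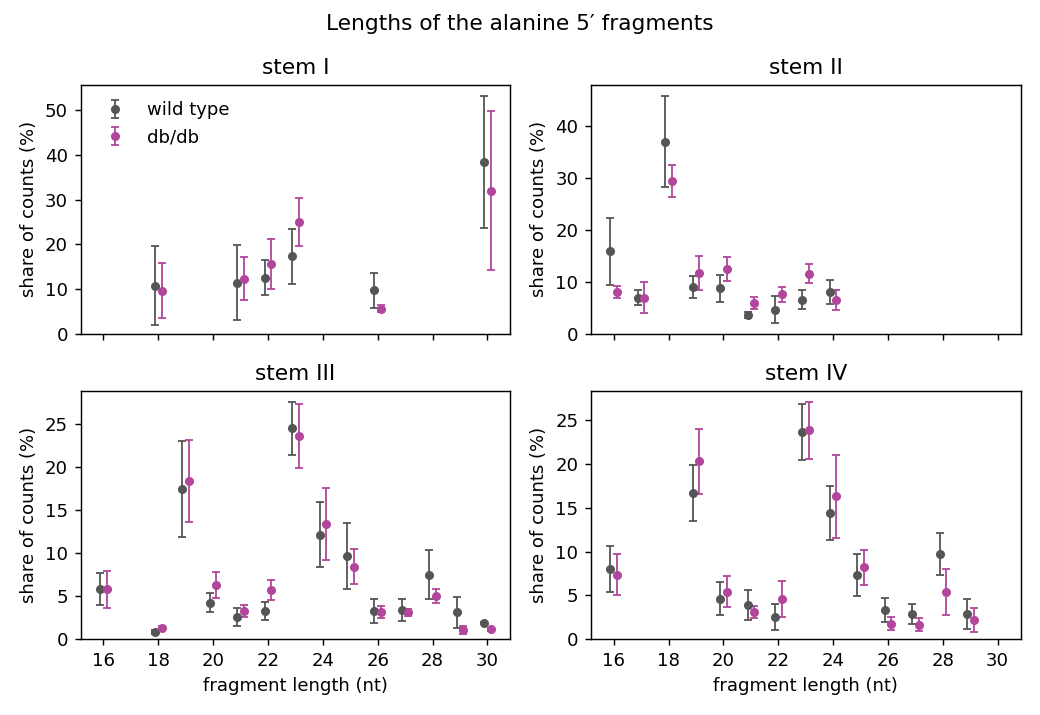
Share of counts (%, vertical axes) by fragment length (nt, horizontal axes) for the 5′ fragments of each acceptor stem. Points are means and bars SD over 4 wild type (grey) and 4 db/db (purple) libraries, with peaks at 19 and 23 nt for stems III and IV, at 18 nt for stem II and the highest mean at 30 nt for stem I, where the SD is wide.

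The 82 complete 3′ fragments fell into 6 end groups by their last 16 bases. Stems III and IV had 1 end group each, with 15 fragments apiece. Stems I and II had 2 each, which differed in the last bases of the T arm, the hairpin just before the acceptor stem. In form a the 5 bases before the stem were cccgg, which paired fully with ccggg on the other side of the T arm. In form b they were cccag, and in stem II they paired fully with ctggg. Form a held 17 fragments of stem I and 26 of stem II, and form b 1 of stem I and 8 of stem II. Stem IIa was the end of all Ala-CGC 3′ fragments. The following 3′ fragments are shown because the end groups differed between genotypes, with the 3′ strand of the acceptor stem in capitals.
Ia, Ala-AGC, 17 nt: ccccggCACCTCCacca
Ib, Ala-AGC, 17 nt: ccccagCACCTCCacca
IIa, Ala-CGC, 24 nt: gttcgatccccggCATCTCCacca
IIb, Ala-AGC, 24 nt: gttcgatccccagCATCTCCacca
IIb, Ala-AGC, 29 nt: cctgggttcgatccccagCATCTCCacca
III, Ala-AGC, 24 nt: gatcgatgcccgcATCCTCCacca

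Among the summed ends, the b forms rose. Stem IIb had 48.4, 47.3, 60.5 and 43.2 CPM in wild type and 332, 293, 225 and 234 CPM in db/db libraries. The lowest db/db library stood well above the highest wild type library. The log2 fold change was 2.45 (SE 0.311), with an adjusted p-value of 4.07e-05 by edgeR's quasi-likelihood test over 76 end groups of all names, of which 13.2% were called, 11.8% higher and 1.32% lower. With the library sizes behind the deposited log2 values it was 2.16, and 0 alanine ends were called. Stem Ib was listed with 0 counts in wild type libraries 1 to 3 and 2 counts in wild type library 4, against 19, 8, 45 and 14 counts in db/db libraries. As a single sequence its ratio of db/db to wild type, with library sizes taken into account, was 26.8 (95% exact interval 7.20 to 225, counting error only). It reached the count minimum for testing in the 4 db/db libraries and in 0 wild type libraries, so once tested it had to be higher there. The summed group was too low to be tested when db/db library 1, 3 or 4 was left out, which left 1 alanine end group called.

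Stem Ia, the other end of stem I, was higher in db/db libraries without reaching 2-fold. It had 1230, 868, 1427 and 1725 CPM in wild type and 2557, 2413, 2122 and 2575 CPM in db/db libraries, which did not overlap. The log2 fold change was 0.88 (SE 0.236; adjusted p-value 0.0147, edgeR), and it passed 2-fold without wild type library 4 (1.07), without a normalisation factor (1.11) and with the TMM factors of single sequences (1.0). When scaled to all counts or to the sizes behind the deposited log2 values it was 0.73 and 0.68, and over all alternatives the adjusted p-value in edgeR's or DESeq2's test ran from 0.00308 to 0.989. The a form of stem II, by far the most abundant alanine end, had 11451, 8741, 12309 and 13014 CPM in wild type and 13331, 11730, 10745 and 13499 CPM in db/db libraries. This was a log2 fold change of 0.12 (SE 0.198; adjusted p-value 0.732, edgeR), and it turned to -0.064 and -0.14 when scaled to all counts or to the sizes behind the deposited log2 values. Stem III had a log2 fold change of -0.19 (SE 0.228; adjusted p-value 0.610, edgeR), which was 0.0030 without a normalisation factor and 0.038 without wild type library 4. Stem IV had one of 0.40 (SE 0.233; adjusted p-value 0.230, edgeR).

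As shares of complete alanine 3′ counts, stem Ia accounted for 7.92% ± 0.900 in wild type and 13% ± 0.618 in db/db libraries (SD, n = 4), and stem IIb for 0.312% ± 0.0689 and 1.47% ± 0.269. Neither share overlapped between the genotypes. The shares of stem IIa (69.7% ± 2.96 and 66.4% ± 2.19), stem III (16.9% ± 2.50 and 13.1% ± 2.41) and stem IV (5.13% ± 0.842 and 5.87% ± 0.799) did overlap. The 5′ shares given above leave out the 16-nt Ala-CGC sequence, which begins with the strand of stem II. Set beside the fragments classed as 5′, stem I had a larger share in db/db libraries at both ends of the molecule. Stem III had a smaller mean share at both, without overlap at the 5′ end and with overlap at the 3′ end. Stem II did not move alike at both ends: its share was larger at the 5′ end, without overlap, while at the 3′ end the mean share of IIa was smaller, with overlap, and that of the much rarer IIb larger.

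**Figure D3:**
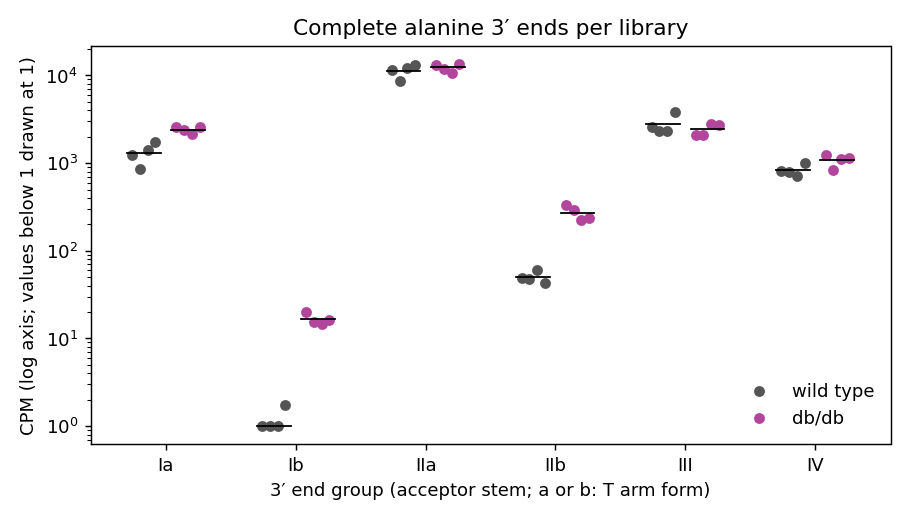
Level of the 6 complete alanine 3′ end groups (horizontal axis) in CPM on a log axis. Points are single libraries and black lines means, values below 1 CPM are drawn at 1, and the wild type (grey) and db/db (purple) libraries separate for Ia, Ib and IIb but not for IIa, III or IV.

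The single 3′ fragments followed their end group. The 7 tested fragments of stem IIb rose, with log2 fold changes from 2.20 to 3.56, but 5 of them reached the count minimum in 0 wild type libraries and 2 in 1, so that the filter had chosen them for high db/db levels. With no filter all 8 fragments of this end were called higher (2.27 to 3.63). Of stem Ia, 7 of 16 rose, 1 of which reached the count minimum in 0 wild type libraries, while 0 of 26 of stem IIa, 0 of 15 of stem III and 0 of 15 of stem IV were called. The median log2 fold changes were 1.06 for stem Ia and 0.33, -0.14 and 0.46 for these 3. When scaled to all counts, 7 of stem IIb and 1 of stem Ia were called, and with the sizes behind the deposited log2 values 4 and 0. The 29-nt fragment of stem IIb, which holds the whole T arm, had 1.78, 2.71, 1.68 and 3.09 CPM in wild type and 33.8, 21.7, 42.8 and 20.4 CPM in db/db libraries. The fitted log2 fold change of 3.56 (SE 0.622) came from 8 counts in all wild type and 173 in all db/db libraries. The 24-nt fragment of stem IIb had 17.8, 4.06, 6.72 and 6.95 CPM in wild type and 36.7, 90.2, 56.6 and 35.5 CPM in db/db libraries. Its fitted log2 fold change was 2.64 (SE 0.558). It reached the count minimum in 1 wild type library, so its p-value is not given. None of the db/db libraries came down to the wild type level for either fragment. A 19-nt and a 28-nt fragment of the same end had fitted log2 fold changes of 3.18 (SE 0.676) and 2.85 (SE 0.705).

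The abundant 3′ fragments stood beside these without a call. The 24-nt fragment of stem IIa, the most abundant alanine 3′ sequence, had 3142, 1266, 1923 and 1771 CPM in wild type and 1422, 2128, 2394 and 1317 CPM in db/db libraries. This was a log2 fold change of -0.16 (SE 0.355; adjusted p-value 0.836, edgeR), turning to 0.19 without wild type library 1 and 0.09 without db/db library 4. The 19-nt, 18-nt and 17-nt fragments of that end, which with it and 1 other sequence were the 5 most abundant alanine sequences, had log2 fold changes of -0.13, 0.29 and 0.31. The 24-nt fragment of stem III, the most abundant Ala-AGC 3′ sequence, had one of 0.05 (SE 0.363; adjusted p-value 0.951, edgeR). Complete 3′ fragments had the same count-weighted mean length of 22.2 nt in both genotypes (SD 0.280 in wild type, 0.228 in db/db), and 24 nt was their commonest length, at 24.1% ± 5.30 in wild type and 21% ± 4.92 in db/db libraries.

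**Figure D4:**
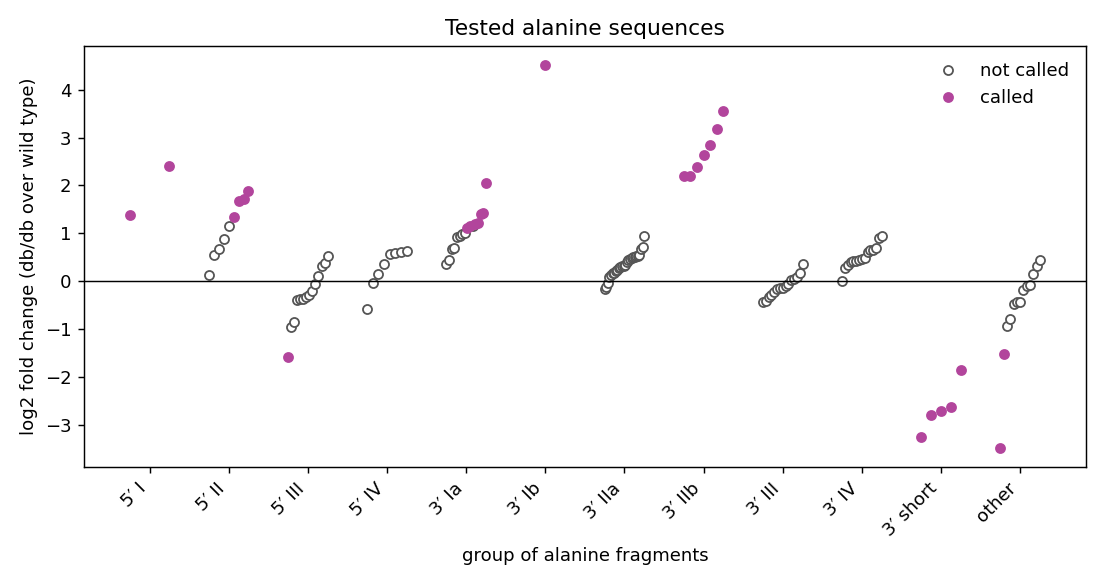
Log2 fold change (db/db over wild type, vertical axis) of the 131 tested alanine sequences, by class and stem (horizontal axis). Each point is a sequence, filled where called, and the called points sit in 5′ I, 5′ II, 3′ Ia, 3′ Ib and 3′ IIb above 0 and in the shortened 3′ ends below 0, with 1 in 5′ III and 2 in the others.

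When fragments were added up by name and first 8 bases, which joins molecules that begin alike whatever their end, 76 alanine groups were tested and 15 rose, while 0 fell. Over all names 6.73% of 951 groups were called, 4.84% higher and 1.89% lower. The 15 were stem I at the 5′ end, all 6 groups that end in stem IIb, 7 of 16 that end in stem Ia and 1 that joins the 17-nt fragments of stems Ib and IIb, whereas 0 of 24 that end in stem IIa were called. The count minimum was reached in 0 wild type libraries by 5 of the 6 stem IIb groups and 1 of the 7 stem Ia groups, and in 1 wild type library by the other stem IIb group and by the joined one, so that the filter had chosen these for high db/db levels. The number that rose was 7 without db/db library 1, 9 without db/db library 4 and 9 without wild type library 2. It was 5 when scaled to all counts. With the sizes behind the deposited log2 values, 1 rose and 1 fell.

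Alanine 3′ ends that lacked the last bases of CCA moved the other way. All 9 such sequences were named Ala-CGC, 7 of them 1 base and 2 of them 2 bases short of the complete end. The following are shown as the complete end of stem IIa and the same fragments without the last base, with what each keeps of CCA in capitals.
Complete, 17 nt: ccccggcatctccaCCA
1 base short, 16 nt: ccccggcatctccaCC
Complete, 24 nt: gttcgatccccggcatctccaCCA
1 base short, 23 nt: gttcgatccccggcatctccaCC
Summed, the short ends had 374, 419, 326 and 362 CPM in wild type and 62.0, 80.0, 79.1 and 63.7 CPM in db/db libraries. Each db/db library held less than any wild type library. The log2 fold change was -2.38 (SE 0.240), with an adjusted p-value of 1.41e-05 by edgeR's quasi-likelihood test over 130 families, the sums by name and class, of which 20.8% were called, 3.08% higher and 17.7% lower. It was the only one of the 7 alanine families called.

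The 5 short sequences that could be tested fell, with log2 fold changes of -3.27 (SE 0.537), -2.81 (SE 0.464), -2.71 (SE 0.495), -2.64 (SE 0.442) and -1.85 (SE 0.557) for those of 18, 23, 17, 16 and 20 nt. The 16-nt and 23-nt ones reached the count minimum in 3 db/db libraries, with adjusted p-values of 0.000128 and 0.000115 in edgeR's test. All 5 reached the count minimum in the 4 wild type libraries. In db/db libraries, 2 of them reached it in 0 and the 17-nt one in 1. The filter had thus chosen for high wild type levels. With no filter 8 of the 9 short sequences were called lower, and the log2 fold changes of all 9 ran from -3.18 to -1.23. The 16-nt one, the most abundant, had 116, 135, 121 and 74.1 CPM in wild type and 10.6, 32.5, 15 and 16 CPM in db/db libraries. The 23-nt one had 165, 81.2, 60.5 and 74.9 CPM in wild type and 10.6, 9.02, 19.1 and 13.3 CPM in db/db libraries. In no case did the genotypes overlap. The call of the 20-nt one was lost without wild type library 1 (-1.51) or db/db library 4 (-1.67). The 24-nt sequence, which has 1 base more at its 3′ end than the 23-nt one, was not called, at -0.16.

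The share of short ends among all alanine 3′ ends was 2.86%, 3.70%, 2.78% and 1.92% in wild type libraries and 0.313%, 0.462%, 0.319% and 0.373% in db/db libraries. The 95% Wilson interval of the lowest wild type share was 1.75% to 2.11% and that of the highest db/db share 0.342% to 0.623%, for counting error only. The means were 2.82% ± 0.729 and 0.367% ± 0.0688 (SD, n = 4), a ratio of 7.69. The other tRNAs moved in the same way: short ends were 3.02% ± 1.29 of their 3′ ends in wild type and 0.487% ± 0.0603 in db/db libraries, and 139 of 163 tested short sequences of other names were lower and 0 higher.

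**Figure D5:**
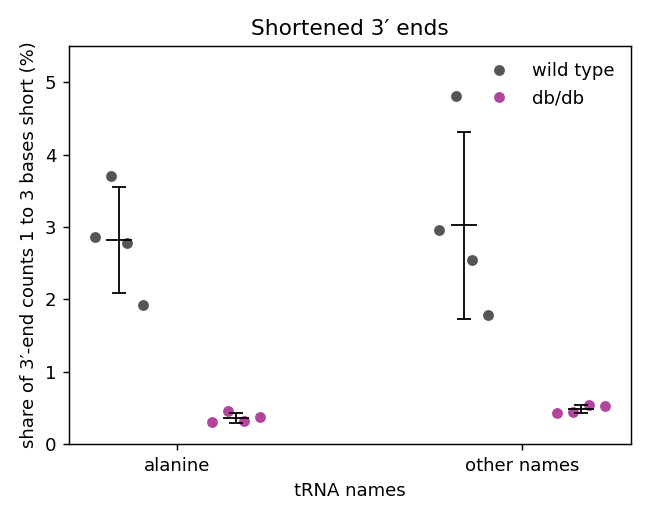
Share of 3′-end counts that were 1 to 3 bases short of the complete end (%, vertical axis), for alanine and for all other tRNA names. Points are libraries, wild type in grey and db/db in purple, with mean and SD, and every db/db library lies below every wild type library in both sets.

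The remaining 23 alanine sequences were neither 5′ nor 3′ fragments by the rules used. Of these, 21 were Ala-AGC sequences, 11 of them tested and 1 called lower. The called one and the most abundant one, shown because the group turns on them, are as follows.
Called lower, 21 nt: gaggtagcgggatcgatgccc
Most abundant, 17 nt: tgcgagaggtagcggga
The 21-nt sequence had 51.6, 58.2, 42.0 and 30.9 CPM in wild type and 18.4, 7.22, 16.6 and 19.5 CPM in db/db libraries, and fell by 1.52 on the log2 scale (SE 0.479; adjusted p-value 0.0360, edgeR), without overlap. It was the only one called among the remaining Ala-AGC sequences and was named after its values were seen, and it was not called with the sizes behind the deposited log2 values (-2.13). The 17-nt sequence had a log2 fold change of -0.09 (SE 0.352; adjusted p-value 0.906, edgeR).

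A single 16-nt sequence named Ala-CGC made up most of the rest. It begins with the strand of stem II, in capitals, and is shown because 1 library decides the level of Ala-CGC.
Ala-CGC, 16 nt: GGGGATGtagctcaga
It had 74, 10635, 326 and 132 counts in wild type libraries 1 to 4 and 353, 14, 41 and 1095 counts in db/db libraries 1 to 4. Wild type library 2 stood far apart, where the sequence was 1.58% of tRF counts (95% Wilson interval 1.55% to 1.61%, counting error only) and 51.1% of alanine counts. The other libraries varied too, from 0.00139% to 0.113% of tRF counts. The log2 fold change was -3.48 (SE 1.21; adjusted p-value 0.0632, edgeR) and the sequence was called, although the genotypes overlapped. Without wild type library 2 it was 0.33 and not called, and the call was also lost without db/db library 2 (-3.08) or 3 (-3.06). A further Ala-CGC sequence, which lies inside 58 sequences named Glu-CTC and so cannot be assigned to alanine from its letters, had a log2 fold change of 0.45 and was not called. As a family these 2 sequences had a log2 fold change of -3.22 (SE 1.49; adjusted p-value 0.167, edgeR), called without db/db library 4 (-4.51), wild type library 1 (-3.63) or wild type library 4 (-3.71) and when scaled to all counts (-4.66) or to the sizes behind the deposited log2 values (-5.41), and 0.70 without wild type library 2.

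Per anticodon, 0 of the 3 alanine totals were called, where 4.17% of the 48 names of the table were. Ala-AGC ranked 17 among the names by mean level, with 5858, 5914, 6968 and 8136 CPM in wild type and 9156, 8626, 8306 and 9363 CPM in db/db libraries. Every db/db library was above every wild type library, as for 6.25% of the names, but the log2 fold change of 0.40 (SE 0.197; adjusted p-value 0.341, edgeR) did not pass the test and was -0.050 under the sizes behind the deposited log2 values. Ala-CGC ranked 13, with 9958, 24102, 10422 and 12319 CPM in wild type and 13381, 12075, 11666 and 12660 CPM in db/db libraries. This was a log2 fold change of -0.19 (SE 0.249; adjusted p-value 0.726, edgeR), which became 0.22 without the 16-nt sequence and 0.16 without wild type library 2. Ala-TGC ranked 44, with 60.1, 94.1, 88.5 and 115 CPM in wild type and 127, 185, 103 and 167 CPM in db/db libraries, which overlapped, and a log2 fold change of 0.68 (SE 0.323; adjusted p-value 0.341, edgeR). By class, the log2 fold changes were 0.70 (SE 0.303; adjusted p-value 0.152, edgeR) for Ala-AGC 3′, 0.44 (SE 0.285; adjusted p-value 0.355, edgeR) for Ala-AGC 5′ and 0.49 (SE 0.252; adjusted p-value 0.231, edgeR) for Ala-CGC 3′ fragments. The first was 0.15 when scaled to all counts and 0.12 under the sizes behind the deposited log2 values, and the last 2 turned to -0.16 and -0.066 when scaled to all counts and to -0.38 and -0.14 under the sizes behind the deposited log2 values, where the median of all families was -0.55 and -0.68.

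The names whose totals varied most like those of the alanine tRNAs over the 8 libraries were found by the root mean square difference of log2 CPM (0.5 added), each name centred on its own mean. For Ala-AGC they were iMet-CAT (0.147), Gln-CTG (0.232) and Ser-GCT (0.240), where the median over all other names was 0.407. For Ala-CGC they were Met-CAT (0.170), Gly-TCC (0.223) and Ile-AAT (0.232), with a median of 0.460. The Ala-CGC total stood far apart in wild type library 2 through the 16-nt sequence, and its likeness without that sequence was not worked out. For Ala-TGC they were Arg-CCG (0.192), Arg-ACG (0.280) and His-GTG (0.281), with a median of 0.551. All totals share the libraries and their scaling factors, so these are descriptions without a test.

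The 3 Ala-TGC sequences were all complete 3′ ends, so their family held the same counts as the Ala-TGC total. With the TMM factors of the families in place of those of the names, the genotypes did not overlap, so that the separation rests on the choice of factors. On that scale a log2 fold change of 0.85 (SE 0.277; adjusted p-value 0.0458, edgeR) stayed under 2-fold, and it reached 1.0 and was called without wild type library 4. It was 0.25 when scaled to all counts and 0.081 with the sizes behind the deposited log2 values, and the adjusted p-value was between 0.101 and 0.155 without any one of 6 other libraries. The 30-nt one ended in stem IIa and had a log2 fold change of 0.51 (SE 0.369; adjusted p-value 0.469, edgeR). The 27-nt one ended in stem Ia and had a fitted log2 fold change of 2.06 (SE 0.626). It reached the count minimum in 0 wild type libraries, so once tested it had to be higher in db/db libraries, and it was not called with the sizes behind the deposited log2 values (1.69). The 24-nt one, also of stem Ia, had a log2 fold change of 0.36. Both are printed here with the 3′ strand of the stem in capitals, with the 30-nt one, since they are all that the table held of this anticodon.
Ia, 27 nt: cgggttcgatccccggCACCTCCacca
Ia, 24 nt: gttcgatccccggCACCTCCacca
IIa, 30 nt: ccccgggttcaatccccggCATCTCCacca

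In the RefSeq annotation of build GRCm38.p6 there are 33 alanine tRNA genes, 13 for AGC, 9 for CGC and 11 for TGC. Of these, 12 lie on chromosome 13 between positions 21222586 and 23438768, 9 of them for AGC. Another 12 lie on chromosome X between positions 136357602 and 136590436, 5 for CGC and 7 for TGC, and the rest are spread over chromosomes 2, 3, 4, 5, 11 and 19. The table gives no position for a fragment, so stems and ends were not assigned to single genes.

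Sequences with terminal oligoguanine were called in both directions. Of 64 sequences of any tRNA that begin with GGGG, 42 were alanine, and 51 could be tested. There were 7 higher and 4 lower among them, where 5.57% and 9.44% of all tested sequences were, and the median log2 fold change was 0.39. With the sizes behind the deposited log2 values, 0 were higher and 4 lower, and when scaled to all counts 2 and 4. The alanine ones, 34 tested, had 6 higher and 2 lower with a median of 0.34, the lower ones being the 16-nt Ala-CGC sequence and the 29-nt fragment of stem III, of which the former was 0.33 without wild type library 2 and the latter lost its call under the 5 alternatives given above. The others, 17 tested, had 1 higher and 2 lower with a median of 0.68.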

How the data were processed

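Small RNA of FACS-sorted β-cells was sequenced by the study in 8 libraries (QIAseq miRNA kit with unique molecular identifiers). Reads above 16 nt were collapsed to molecules and matched without mismatch to mature tRNAs, and the submitters' processing notes name build GRCm38.p6. The authors' deposited table gives, per sequence and library, a count of unique molecules, an RPM value rounded to a whole number (treated as a score) and a normalised log2 value, whose normalisation the sources used here do not describe. The authors' own direction of change in the table was not used. Only counts were tested. Score and log2 values, as deposited, served to work out the total count and the effective size of each library for alternative scalings.

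Counts of the whole table were fitted with edgeR 4.0.16 in R 4.3.3 (TMM, filterByExpr with minimum count 10 and minimum total 15, glmQLFit and glmQLFTest, genotype as the only term), with Benjamini-Hochberg adjustment over all features tested. Calls required more than 2-fold and adjusted p-values under 0.1. SE is the log2 fold change over the square root of F. The same test was run on sums by name, by name and class, by name and first 8 bases, and by the last 16 bases of complete 3′ ends. The last grouping was chosen after seeing the table. Classes were read from the sequences: 3′ ends in CCA, short 3′ ends lie 1 to 3 bases before such an end by an overlap of at least 12 bases, and 5′ fragments share 8 first bases with at least 5 sequences of the name that lie inside no other sequence of it. Mature tRNA sequences were not used here. Shares are described without a test. P-values measure the spread between pooled preparations.

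Named sequences were, by rule, the called sequences without overlap that rose most (6) and that fell most (6), the most abundant of each name and class and of each 5′ start, and the 5 most abundant; the 23-nt fragment of stem II, the 21-nt remaining Ala-AGC sequence and the 27-nt and 24-nt Ala-TGC fragments were named after their values were seen. The members and lists were chosen with earlier results of these data known. The procedure was tested on simulated data. Alternatives were RLE factors, no factor, other library sizes, DESeq2 1.42.0, no filter, a term for library name, other thresholds, class rules and start lengths, and leaving out each library. Python 3.11.15, pandas 2.3.3, scipy 1.17.1 and matplotlib 3.10.9 were used.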

Additional observations from a re-analysis of the deposited data

Results flagged for a closer look

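Among 96 groups of 4 libraries examined, 8 held 1 library far from the others of its genotype by Dixon's test, where chance alone gives about 1 in 20. Wild type library 2 was the high one in 4 of them, which share the 16-nt Ala-CGC sequence: the sequence itself (14395 CPM, the others 102 to 548), its start group (14162 CPM, the others 98.6 to 610), the family of remaining Ala-CGC sequences (13863 CPM, the others 114 to 508) and the Ala-CGC total (24102 CPM, the others 9958 to 12319). Wild type library 4 was the only wild type library above 0 for the end group of stem Ib (1.73 CPM) and for its only sequence (1.54 CPM), from 2 counts. Db/db library 3 was low for the 5′ fragments of stem I (112 CPM, the others 213 to 232). Db/db library 1 was high for the 20-nt short 3′ end (8.69 CPM, the others 5.33 to 5.82).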

How the results depend on the processing

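No paired analysis was possible because replicate numbers are not given in GEO's labels: the numbers 1 to 4 used here follow the order of the libraries within a genotype and pair nothing. A term for the 2 ranges of library names (A to D, F to I) left 28 alanine sequences called. Scaling to all counts or to the sizes behind the deposited log2 values shifted the median of all sequences to -0.36 and -0.51, and 19 (11 higher, 8 lower) and 12 (5 higher, 7 lower) alanine sequences were called in place of 29, 5 and 2 (1 of them lower) start groups in place of 15, 2 and 2 families in place of 1, and under the second 0 end groups in place of 2. The tolerant class rule, which counts short ends as 3′ fragments, left 0 families called. Without single libraries these counts were 23 to 36, 7 to 17, 1 to 3 and 1 to 3. The 5′ share of alanine counts moved to a difference of -11.4 points (db/db minus wild type) under the acceptor stem rule, which adds the 16-nt Ala-CGC sequence, turned to -0.525 without that sequence, and ran from -0.61 to 2.89 without single libraries. This rule, the omission of that sequence, the sequence-level TMM factors and the end groups were chosen after seeing the data.

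Directions that turned, all of uncalled values except the 16-nt Ala-CGC sequence, were as follows on the log2 scale. Under the deposited sizes the totals and families gave -0.050 (Ala-AGC), -0.38 (Ala-AGC 5′), -0.73 (Ala-AGC other) and -0.14 (Ala-CGC 3′), and all counts gave -0.16, -0.53 and -0.066 for the last 3. Ala-AGC other was also -0.016 without a factor, -0.053 under the tolerant rule, -0.20 with sequence-level factors, and from -0.037 to 0.20 without single libraries. The groups gave -0.21 and -0.0080 (stem IV 5′) and -0.14 and -0.064 (stem IIa end) under these 2 scalings, and stem III ends gave 0.0030 without a factor and -0.29 to 0.038 without single libraries. Ala-CGC was 0.22 without the 16-nt sequence and -0.33 to 0.16 without single libraries, and its remaining sequences were 0.71 under the acceptor stem rule and -4.51 to 0.70, the start group -4.95 to 0.31 and the 16-nt sequence -4.85 to 0.33. Single sequences under the deposited sizes and all counts gave -0.12 and -0.17 (stem III 24 nt), -0.20 and -0.062 (stem IIa 18 nt), -0.10 and -0.00072 (stem IIa 17 nt), and under the first only -0.11 (Ala-TGC 30 nt) and -0.14 (stem IV 23 nt). Without a factor, the 17-nt Ala-AGC other sequence was 0.12 and stem IIa 19 nt 0.026. Without single libraries the ranges were -0.24 to 0.26 (stem III 24 nt), -0.30 to 0.10 (17-nt other), -0.34 to 0.19 (stem IIa 24 nt) and -0.28 to 0.14 (stem IIa 19 nt). The call of the 16-nt Ala-CGC sequence was also lost with a term for library name (-2.34) or without a factor (-3.35). Over all 8 libraries, stem Ib rests on 88 counts and Ala-TGC on 982.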
